A study of Mus musculus with 41 samples.

Results

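The genes described here are 10 members of the system that couples lysosomes to nutrient supply, taken by symbol from the 24015 genes of the deposited table: the transcription factors Mitf, Tfeb, Tfe3 and Tfec, the folliculin complex genes Flcn, Fnip1 and Fnip2, and the Rag GTPase genes Rraga, Rragc and Rragd. All 10 of 10 were found, and all 10 reached 10 normalized counts in 3 or more libraries, the condition for being tested, in each of the 3 fits. The rule takes genes by name and uses no measured value.

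The RNA came from microglia, macrophages that live in the brain tissue, which were isolated from mouse cerebellum by sorting on CD11b together with Tmem119. The 41 libraries form 10 groups. Wild-type mice (WT, strain balb/c) and Niemann-Pick type C mice (NPC, strain BALB/cNctr-Npc1m1N/J) were sampled without treatment at 1, 3, 6 and 9 weeks of age, with 4 libraries a group and 3 for NPC at 9 weeks. A second arm held NPC mice of the same strain at 9 weeks, 5 that received the Csf1r kinase inhibitor PLX5622 and 5 labelled Control. Both groups of that arm therefore carry the mutation, and what the control mice received, the dose of PLX5622 and its duration are not given in the sources used here. Niemann-Pick type C disease is a lysosomal storage disorder in which cholesterol leaves the lysosome poorly. The strain label names no cell type to which the mutation is confined, so the sorted microglia come from a mutant brain. The design counts mice as the replicates, and the p-values measure the spread between these samples.

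Libraries held 23.2 M to 40.5 M recovered reads (median 30.5 M, where M is 1e+06). Npc1, the gene whose mutation names the strain, ranged from 2606 to 7386 normalized counts in WT libraries and from 291 to 785 in the NPC libraries of the time course, with no overlap. Tmem119, the marker of the sort, was detected in every library but was lower in NPC at 9 weeks (122897 to 132484) than in WT (246424 to 295776). NPC 3 weeks library C had the fewest genes with at least 3 reads of all libraries (12003), and NPC 6 weeks libraries B and C had the highest summed astrocyte marker levels of all 41 libraries (15907 and 15271 normalized counts).

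The 4 MiT-TFE factors are related basic helix-loop-helix leucine zipper proteins that bind E-box motifs in the promoters of lysosomal and autophagy genes. When amino acids are plentiful, heterodimers of a Rag A or B with a Rag C or D protein hold the kinase mTORC1 at the lysosome, and Rag C or D presents Tfeb and Tfe3 to it. Phosphorylation by mTORC1 keeps these factors in the cytoplasm, and folliculin, with its partner Fnip1 or Fnip2, acts on Rag C and D as a GTPase activating protein that promotes this step. In starved or stressed cells the factors move into the nucleus. Rragd, Rragc, Flcn and Fnip2 have themselves been described as genes that these factors switch on, so the same system holds a feedback arm. An RNA level reports none of these protein movements.

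Between NPC and WT microglia 4 of the 10 genes differed at 1 or more ages. Mitf, Tfeb, Tfe3, Flcn, Fnip1 and Rraga did not pass the test at any age. Rragd was higher in NPC at all 4 ages, at 1 week by a call that held in 4 of the 9 other settings run, Rragc and Fnip2 at 3, 6 and 9 weeks, and Tfec at 9 weeks. No member was called lower. A call means an adjusted p below 0.05 (limma on log2(value + 1), Benjamini-Hochberg over all genes tested). At 1 week 1 of 10 members was called higher, beside 0.876% of the 14046 genes tested called higher and 0.577% lower. At 3 weeks it was 3 of 10, beside 14.3% of genes called higher and 12.6% lower, and at 6 weeks 3 of 10, beside 8.76% and 6.5%. At 9 weeks 4 of 10 members were called higher, beside 11.2% and 7.77%. The members' median log2 change was 0.26, 0.07, 0.40 and 0.23 at 1, 3, 6 and 9 weeks, against 0.00, -0.04, -0.02 and 0.03 over all genes, so the counts rest on 4 of the 10 genes. Of all genes called, the share that was higher in NPC was 53.1% at 3 weeks and 59.1% at 9 weeks. With every library scaled to the same total it was 38.1% and 48.8%, and the median of all genes at 3 weeks moved to -0.17. The calls of Rragd, Rragc and Fnip2 at 3, 6 and 9 weeks and of Tfec at 9 weeks held under that scaling. In such bulk samples a different share of cell types and a different RNA content per cell cannot be told apart.

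**Figure D1:**
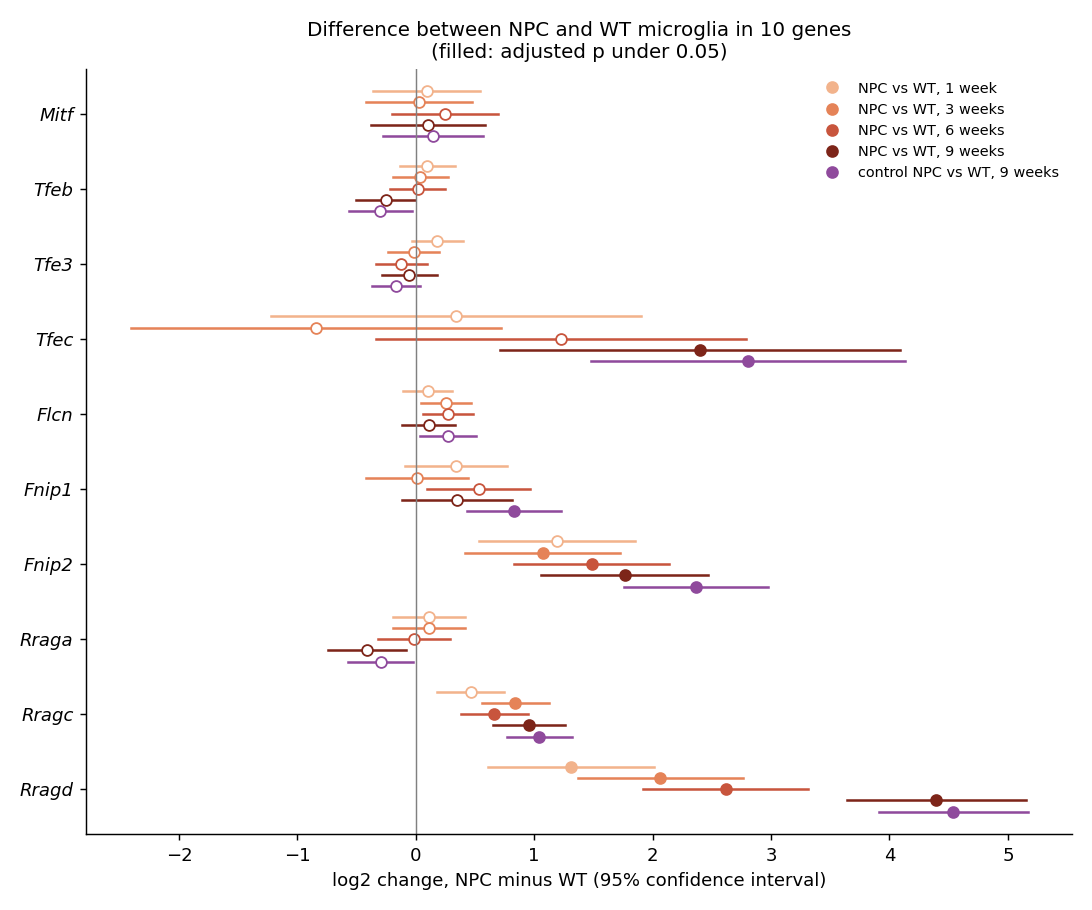
Log2 change between NPC and WT microglia (x axis) for each of the 10 genes (rows), with 95% confidence intervals from limma on log2(normalized counts + 1); colours mark the age, purple the control arm at 9 weeks, and filled points an adjusted p below 0.05. Rragd moves from 1.31 at 1 week to 4.40 at 9 weeks, while every point of Mitf, Tfeb and Tfe3 is open.

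Rragd encodes one of the C/D-type Rag GTPases and was the member with the largest difference. At 1 week the WT libraries held 51.9, 77.3, 104 and 76.9 normalized counts and the NPC libraries 188, 120, 200 and 277. The lowest NPC library was above the highest WT library. The fold was 2.48 (95% interval 1.53 to 4.02, limma adjusted p = 0.0466, n = 4 and 4). This call was close to the threshold: with the library letter as a replicate block, which pairs the samples at this age, the log2 change was the same (1.31) and the adjusted p 0.0991. The call was also lost with no filter (0.0541), with equal totals (0.0654), with only those 2 groups fitted (0.0536) and without NPC 6 weeks libraries B and C (0.0553). Leaving out 1 library at a time kept the call in 11 of 31 fits. It was lost without WT 1 week library A (adjusted p = 0.206), B (0.0938) or D (0.0777) and without NPC 1 week library A (0.0869), C (0.111) or D (0.221). The adjusted p was just past the threshold, at 0.051 to 0.0583, without any 1 of these libraries of other ages: WT 3 weeks A or B, WT 6 weeks A or D, WT 9 weeks C or D, NPC 3 weeks A or B, NPC 6 weeks A, C or D, and NPC 9 weeks A, B or C.

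At 3 weeks Rragd was 46.5, 58.8, 70.7 and 34.5 in WT and 189, 209, 179 and 307 normalized counts in NPC. The ranges did not overlap at this age, and the fold was 4.19 (2.58 to 6.80, limma adjusted p = 7.29e-05). At 6 weeks WT libraries had 82.3, 55.6, 48.9 and 78.7 and NPC libraries 438, 306, 498 and 394 normalized counts of Rragd, a fold of 6.13 (3.78 to 9.96, limma adjusted p = 2.04e-06). Again every NPC library exceeded every WT library. At 9 weeks the WT values of Rragd were 11.2, 53.4, 24.8 and 34.3 and the NPC values 537, 640 and 588. WT library A held only 11 reads of the gene, and the 3 NPC libraries 483 to 630. The fold at 9 weeks was 21.1 (12.5 to 35.5, limma adjusted p = 6.1e-10). The lowest NPC value was thus far above the highest WT value.

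The genotype difference of Rragd grew between 3 and 9 weeks. The interaction was 2.33 ± 0.50 on the log2 scale (SE, limma adjusted p = 0.0269), and Rragd was the only 1 of 10 members called, beside 0.263% of all genes with a difference that grew and 0.192% with one that went down. This interaction was lost with a replicate block (adjusted p = 0.0956), with the 4 groups fitted alone (0.128), and when any NPC 9 weeks library, WT 9 weeks library C, or WT 3 weeks library B or C was left out (highest adjusted p 0.0783). The means of both genotypes went apart. The NPC mean was 221 ± 58.5 (SD, n = 4) at 3 weeks, 409 ± 80.8 at 6 weeks and 588 ± 51.4 at 9 weeks, whereas the WT mean was 52.7 ± 15.6, 66.4 ± 16.6 and 30.9 ± 17.7. Neither step between neighbouring ages passed the test in either genotype (limma adjusted p 0.349 and 0.638 in NPC, 0.762 and 0.137 in WT). From 1 to 3 weeks the genotype difference of Rragd changed by 0.76 ± 0.48 on the log2 scale, which did not pass (limma adjusted p = 0.382), and 0 of 10 members were called in that interaction, beside 1.06% of genes. None of the 10 had an unadjusted p below 0.05 there, beside 18% of genes, and edgeR and DESeq2 also called 0.

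Rragc, the closest relative of Rragd and the far more abundant of the pair, showed a smaller and steadier difference. At 1 week it was 5263, 5111, 5577 and 5306 normalized counts in WT and 6851, 7852, 6845 and 7872 in NPC. Although these ranges did not overlap, the fold of 1.38 (1.14 to 1.68) missed the threshold (limma adjusted p = 0.0959). It passed without NPC 3 weeks library C (adjusted p = 0.0152), with only those 2 groups fitted (0.0266), with DESeq2 (0.0421), with quantile normalization (0.0273) and with equal totals (0.0408). At 3 weeks WT libraries had 4601, 5270, 5130 and 4755 and NPC libraries 6948, 8997, 12378.5 and 7864 normalized counts of Rragc, the highest being library C. The fold of Rragc was 1.79 (1.47 to 2.18, limma adjusted p = 6.65e-05). At 6 weeks the WT values of Rragc were 6976, 5155, 4381 and 5244 and the NPC values 8866, 8709, 9440 and 7096, which left a narrow gap between the highest WT and the lowest NPC library. The fold at 6 weeks was 1.58 (1.30 to 1.92, limma adjusted p = 0.00107). At 9 weeks Rragc stood at 4053, 4420, 4531 and 3986 in WT and 8338, 9112 and 7328 in NPC, a fold of 1.94 (1.57 to 2.40, limma adjusted p = 2.15e-05). The calls at 3, 6 and 9 weeks held in all 31 fits without 1 library and in all 9 other settings run. The interaction of Rragc between 3 and 9 weeks was 0.12 ± 0.20 (log2, limma adjusted p = 0.816).

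Rraga, the A-type partner of Rragc and Rragd in the heterodimer, was not called higher at any age. Its values overlapped between genotypes at 1, 3 and 6 weeks, with folds of 1.08, 1.08 and 0.987. At 9 weeks Rraga was 1278, 1138, 1212 and 1414 normalized counts in WT and 998, 828 and 1027 in NPC. The NPC libraries were all below the WT libraries, and the log2 change of -0.41 ± 0.16 did not pass the test (limma adjusted p = 0.0753). It passed with libraries scaled to the same total (-0.50, adjusted p = 0.00751), with quantile normalization (0.049), with only those 2 groups fitted (0.0235) and without NPC 3 weeks library C (0.0257). Rraga has a close paralog, Rragb, and how reads shared by such copies were counted is not given in the sources used here, so its level carries that uncertainty.

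The 3 Rag genes can be set beside each other on a scale per kilobase of exon, where lengths come from the gene models of GENCODE M21. In WT at 9 weeks Rragc had 1638 ± 104 normalized counts per kilobase (SD, n = 4), Rraga 779 ± 72.5 and Rragd 5.98 ± 3.42. In NPC at 9 weeks the levels per kilobase were 3185 ± 345 for Rragc, 588 ± 66.6 for Rraga and 114 ± 9.93 for Rragd (n = 3). As a share of the summed level of the 3 genes, Rragd took 0.246% ± 0.142 in WT and 2.93% ± 0.274 in NPC at that age, and Rragc 67.6% ± 3.22 and 81.8% ± 2.81. The share of Rraga was 32.2% ± 3.27 in WT and 15.3% ± 2.74 in NPC. These shares are descriptions and were not tested. Rragd remained the least abundant of the 3 in both groups, in spite of its large fold.

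**Figure D2:**
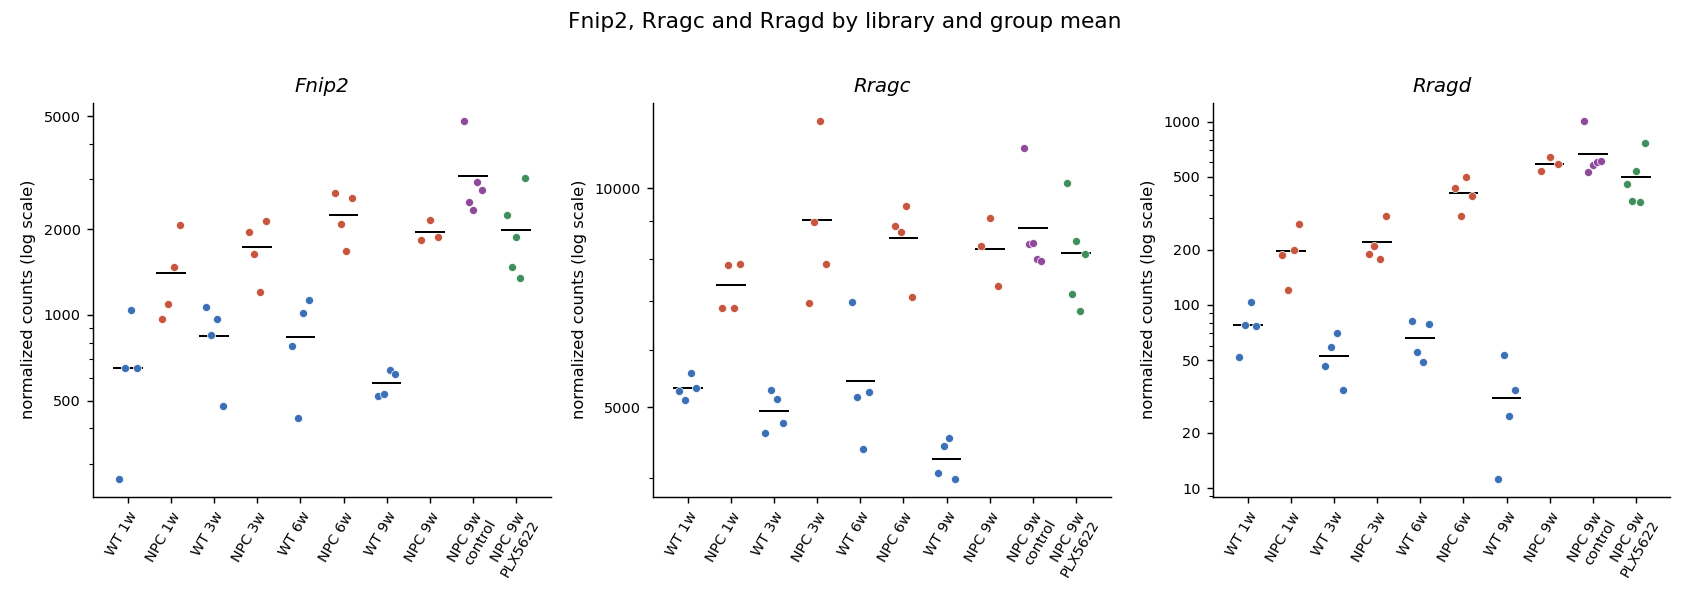
Normalized counts per library (y axis, log scale) of Fnip2, Rragc and Rragd in the 10 groups (x axis); points are libraries, black bars group means, blue WT, red NPC, purple NPC control and green NPC with PLX5622. The Rragd panel shows WT libraries between 11.2 and 104 and every NPC library at 120 or more.

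Fnip2 encodes one of the alternative partners of folliculin. At 1 week it was 266, 652, 1043 and 650 normalized counts in WT and 965, 1096, 1473 and 2067 in NPC. The highest WT library lay above the lowest NPC library, and the fold of 2.28 (1.45 to 3.60) missed the threshold (limma adjusted p = 0.0544). It passed with DESeq2 (0.0202), with quantile normalization (0.0359) and without WT 1 week library C (0.0199), NPC 1 week library A (0.0415), WT 3 weeks library D (0.0424), WT 6 weeks library B (0.0348) or NPC 3 weeks library C (0.0315). At 3 weeks WT libraries held 1063, 851, 970 and 477 and NPC libraries 1953, 1634, 1201 and 2137 normalized counts of Fnip2. The ranges were separate, with a fold of 2.10 (1.34 to 3.31, limma adjusted p = 0.0157). The call at 3 weeks was lost without WT 3 weeks library D (adjusted p = 0.0665) and with only those 2 groups fitted (0.0579). At 6 weeks Fnip2 was 780, 436, 1012 and 1126 in WT and 2672, 2087, 1677 and 2571 in NPC, a fold of 2.80 (1.78 to 4.41, limma adjusted p = 0.00148). At 9 weeks it was 519, 527, 641 and 621 in WT and 1830, 2158 and 1882 in NPC, a fold of 3.39 (2.08 to 5.54, limma adjusted p = 0.000417). In both comparisons all NPC libraries were above all WT libraries. The locus of Fnip2 overlaps a protein-coding model on the opposite strand (Gm17359), and that of Rragc overlaps 4930535I16Rik on the opposite strand. Whether the counting used strand is not given in the sources used here, so reads of such pairs cannot be told apart.

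Promoter sequences were examined because the members that were higher together are described targets of factors that bind E-boxes. RefSeq promoters (250 bases before to 50 after a transcript start, build GRCm38.p6) matched all 10 members, with 15 windows in all. The motif CACGTG, a palindromic E-box, was found in 2 of the 15 windows, those of Fnip1 and Rragc, at positions -75 and -112 from the start. Its first base is counted there, and 0 is the start base. Of all 32851 promoters 7.15% held it, and of the 43 promoters of CLEAR network genes 41.9%. Neither TCACGTGA, the core of the CLEAR element, which contains the E-box, nor TCATGTG, the M-box bound by Mitf, was in a member's window on either strand, and 0.974% and 3.77% of all promoters held these. A match is a description of letters and not a bound site. The windows of the 3 genes called at 3, 6 and 9 weeks are shown 5′ to 3′ on the strand of the gene, in lower case with the E-box in capitals. They lie at chr3:79567630-79567929 on the minus strand for Fnip2, chr4:123917183-123917482 on the plus strand for Rragc and chr4:32982748-32983047 on the plus strand for Rragd.
Fnip2: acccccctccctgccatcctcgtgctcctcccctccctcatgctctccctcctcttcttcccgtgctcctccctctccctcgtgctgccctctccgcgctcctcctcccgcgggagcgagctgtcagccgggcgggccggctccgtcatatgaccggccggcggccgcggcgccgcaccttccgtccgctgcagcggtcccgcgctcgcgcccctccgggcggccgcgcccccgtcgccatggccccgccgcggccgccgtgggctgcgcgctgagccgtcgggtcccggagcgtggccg
Rragc: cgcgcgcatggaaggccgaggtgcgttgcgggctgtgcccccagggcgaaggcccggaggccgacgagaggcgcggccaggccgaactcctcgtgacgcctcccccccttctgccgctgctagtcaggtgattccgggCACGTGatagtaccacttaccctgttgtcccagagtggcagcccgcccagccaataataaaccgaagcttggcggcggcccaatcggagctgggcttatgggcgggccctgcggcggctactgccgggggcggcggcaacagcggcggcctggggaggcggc
Rragd: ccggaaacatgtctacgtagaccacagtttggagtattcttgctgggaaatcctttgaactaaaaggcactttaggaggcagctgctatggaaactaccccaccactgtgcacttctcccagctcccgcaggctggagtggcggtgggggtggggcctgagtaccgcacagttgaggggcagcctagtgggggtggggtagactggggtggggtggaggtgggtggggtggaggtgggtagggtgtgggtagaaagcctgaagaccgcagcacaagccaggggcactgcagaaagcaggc
Of these windows only that of Rragc carries the capitals, and whether the 3 genes share a regulator was not tested.

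Fnip1, the other folliculin partner, differed less. It was 1058, 1185, 1034 and 1347 normalized counts in WT at 9 weeks and 1273, 1714 and 1433 in NPC, with overlapping ranges. The fold of Fnip1 was 1.27 (0.921 to 1.76, limma adjusted p = 0.321), and at 6 weeks it was 1.44 (1.07 to 1.95, limma adjusted p = 0.0903). Without NPC 6 weeks libraries B and C the log2 change at 6 weeks was 0.82 in place of 0.53, and Fnip1 passed (adjusted p = 0.0457), as it did with DESeq2 (0.0484). Flcn, the catalytic subunit, was 11008, 12662, 10832 and 11998 in WT at 3 weeks and 13946, 13857, 12749 and 15017 in NPC. These ranges did not overlap, and the fold of 1.20 (1.03 to 1.38) missed the threshold (limma adjusted p = 0.0599). It passed with DESeq2 (0.0378), without NPC 6 weeks library B (0.0495) and without NPC 6 weeks B and C together (0.0427). At 6 weeks the fold of Flcn was 1.21 (1.04 to 1.4, limma adjusted p = 0.0695), and it passed without NPC 6 weeks B and C (log2 change 0.44, adjusted p = 0.0188), without NPC 6 weeks B alone (0.0278), without NPC 3 weeks C (0.0387) and with DESeq2 (0.0236). At 9 weeks the fold of Flcn was 1.08 (0.922 to 1.26, limma adjusted p = 0.55). Per kilobase, Flcn made up 92.0% ± 0.889 of the summed level of the 3 genes in WT at 9 weeks and 86.6% ± 1.59 in NPC, while Fnip2 went from 2.41% ± 0.252 to 7.14% ± 0.796.

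Tfeb and Tfe3 are the family members best known for lysosome biogenesis, and Mitf is best known for melanocytes and osteoclasts. Tfe3 was the most abundant per kilobase, with 2012 ± 122 normalized counts per kilobase in WT at 9 weeks, ahead of Tfeb at 785 ± 108, Mitf at 106 ± 16.9 and Tfec at 12.3 ± 9.50. At 9 weeks Tfe3 held 7051, 7217, 7925 and 6947 normalized counts in WT and 6748, 7735 and 6585 normalized counts in NPC. These values overlap, and the fold was 0.963 (0.819 to 1.13, limma adjusted p = 0.793). Tfeb was 3754, 2800, 2881 and 3183 in WT at 9 weeks and 2664, 2722 and 2500 in NPC. Here every NPC library lay below every WT library, and the log2 change of -0.25 ± 0.12 did not pass (limma adjusted p = 0.158). With libraries scaled to the same total it was -0.34 and passed (adjusted p = 0.0232). Mitf was 620, 657, 490 and 479 in WT and 574, 567 and 656 in NPC, a fold of 1.07 (0.768 to 1.5, limma adjusted p = 0.811). At 1, 3 and 6 weeks the folds between NPC and WT were 1.07, 1.02 and 1.19 for Mitf, 1.07, 1.03 and 1.01 for Tfeb, and 1.14, 0.988 and 0.918 for Tfe3. The interval of Tfeb at 6 weeks ran from 0.861 to 1.19, so differences within these bounds cannot be told from none. At 6 weeks the 4 NPC libraries of Tfe3 (6587, 7207, 7168 and 6624) all lay below the 4 WT libraries (7429, 8062, 7264 and 7289), with a limma adjusted p of 0.482.

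**Figure D3:**
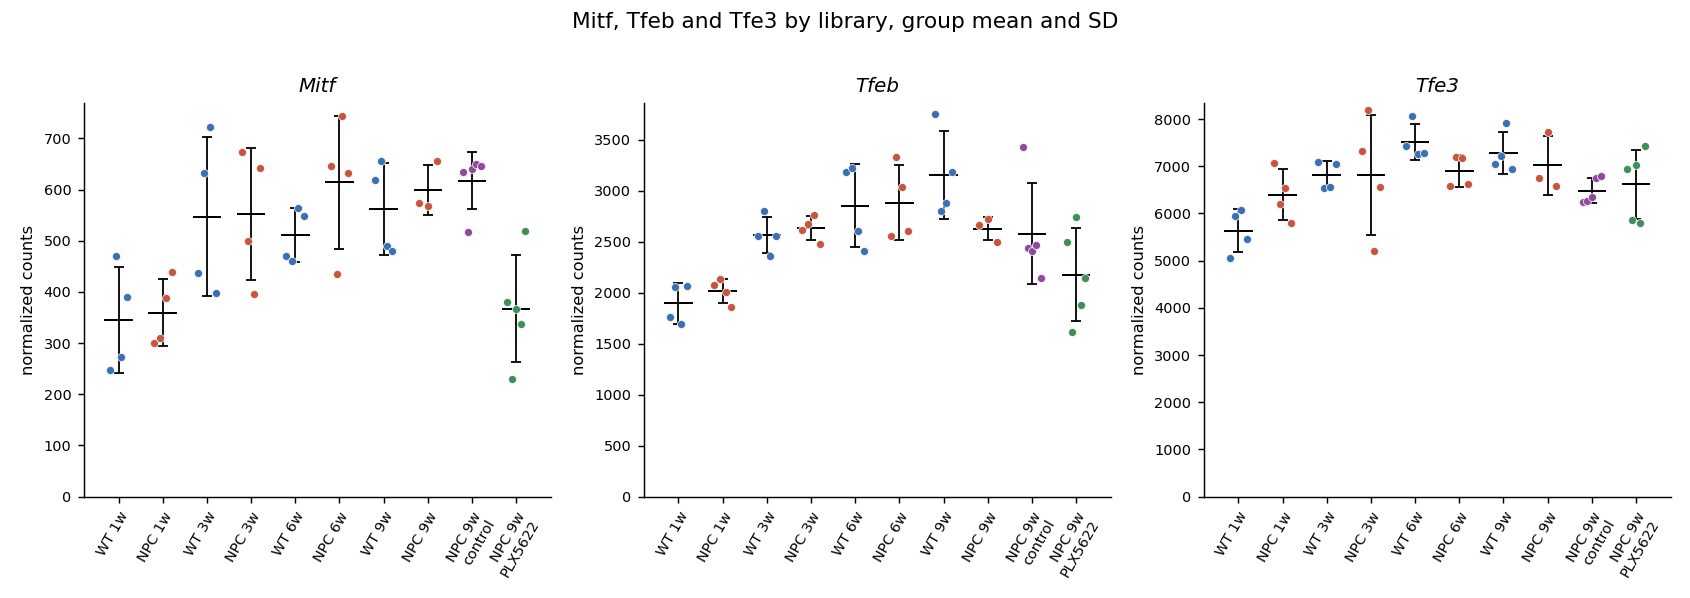
Normalized counts per library (y axis) of Mitf, Tfeb and Tfe3 in the 10 groups (x axis); points are libraries, black bars group means with SD, colours as WT blue, NPC red, NPC control purple and NPC with PLX5622 green. WT and NPC overlap or lie close at each age, both are lowest at 1 week for Mitf and Tfeb, and the Mitf values under PLX5622 reach down to 229.

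Tfec is the fourth factor, expressed mainly in cells of the macrophage lineage. It was low: 45.0, 19.9, 3.97 and 19.2 normalized counts in WT at 9 weeks and 75.6, 97.8 and 105 in NPC. The ranges did not overlap. The fold on the log2(value + 1) scale was 5.28 (1.64 to 17.0, limma adjusted p = 0.0398). This call was lost in 6 of 31 fits without 1 library: WT 9 weeks B (adjusted p = 0.0579), C (0.155) or D (0.0619) and NPC 9 weeks A (0.0845), B (0.101) or C (0.107). It was also lost with no filter and with a replicate block (0.0985). At 6 weeks Tfec was 33.6, 29.1, 14.1 and 18.3 in WT and 60.7, 78.2, 30.0 and 58.6 in NPC, a fold of 2.34 (0.790 to 6.90, limma adjusted p = 0.305) with 1 NPC library inside the WT range. At 3 weeks NPC library C held 0 reads of Tfec, and the other NPC libraries 31.9, 38.4 and 47.1 normalized counts, beside 21.7, 30.7, 47.8 and 17.3 in WT.

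Mitf, Tfeb and Flcn were higher and Tfec lower at 3 than at 1 week, in both genotypes. In WT 5 of 10 members rose and 1 fell, where 15.7% of all genes rose and 18.4% fell. Tfeb rose from 1760, 2059, 1692 and 2070 normalized counts at 1 week to 2553, 2797, 2361 and 2555 at 3 weeks, with no overlap. Its fold was 1.36 (1.15 to 1.59, limma adjusted p = 0.00331). Mitf rose 1.59-fold (1.17 to 2.17, limma adjusted p = 0.0180), Tfe3 1.21-fold (1.04 to 1.41, limma adjusted p = 0.0436), Flcn 1.36-fold (1.18 to 1.57, limma adjusted p = 0.00114) and Fnip1 1.49-fold (1.1 to 2.00, limma adjusted p = 0.0360). Fnip2, Rraga, Rragc and Rragd did not pass in WT over this interval. With every library scaled to the same total, a setting that moved the median of all genes to -0.11 (log2) for this comparison, Mitf, Tfe3 and Fnip1 lost their calls and Tfeb, Flcn and Tfec kept them. Over all genes called, 46% were higher at 3 weeks as deposited and 32.4% with equal totals. Without WT 1 week library A or WT 3 weeks library B or C, 3 of these 6 calls remained, those of Tfeb, Flcn and Tfec.

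Tfec went the other way. In WT it fell from 105, 223, 150 and 168 normalized counts at 1 week to 21.7, 30.7, 47.8 and 17.3 at 3 weeks, 5.54-fold (limma adjusted p = 0.0127). In NPC it fell from 198, 193, 230 and 175 to 31.9, 38.4, 0 and 47.1, a log2 change of -3.65 (limma adjusted p = 0.000643). Without NPC 3 weeks library C, the library at 0, the change was -2.33 and the call held. No 3 weeks library reached the lowest 1 week library in either genotype. Markers of several cell types also changed over this interval. Of border-associated macrophage markers 7 of 10 were lower at 3 than at 1 week in WT and 5 of 10 in NPC. Of 12 oligodendrocyte markers 5 were lower in WT, and 3 lower and 1 higher in NPC. Of 11 neuron markers 3 were lower in WT and 2 in NPC. Of 12 microglia markers 8 were higher and 1 lower in WT, and 6 higher and 0 lower in NPC. Over all genes 18.4% were lower and 15.7% higher in WT, and 12.8% lower and 12.2% higher in NPC. The summed levels of border-associated macrophage markers in WT overlapped, at 15608 to 32428 normalized counts at 1 week and 16569 to 26520 at 3 weeks. Stab1 had the highest median of these markers over all 41 libraries, 20190, and Mrc1 the next, 631. The part of any of these cell types in the change of Tfec was not tested.

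In NPC, Mitf, Tfeb and Flcn rose and Tfec fell between 1 and 3 weeks, 4 of 10 members, beside 12.2% of genes that rose and 12.8% that fell. Flcn rose from 8710, 10381, 9177 and 8382 to 13946, 13857, 12749 and 15017 normalized counts, 1.52-fold (1.31 to 1.76, limma adjusted p = 5.14e-05), and the ranges were far apart. Tfeb rose 1.30-fold (1.11 to 1.53, limma adjusted p = 0.0132) and Mitf 1.52-fold (1.11 to 2.07, limma adjusted p = 0.0422). With libraries scaled to the same total, where the median of all genes was -0.28 and the share higher among called genes went from 48.7% to 24.8%, Flcn and Tfec kept their calls and Tfeb and Mitf lost them. With only these 2 groups fitted 1 of the 4 calls, Flcn, remained. The call of Mitf was also lost without NPC 1 week A, B or C or NPC 3 weeks A, B or D (adjusted p 0.0514 to 0.114). The 2 genotypes were not shown to differ in these age changes, since no member passed the interaction between 1 and 3 weeks.

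After 3 weeks no member was called between neighbouring ages. In WT 0 of 10 passed from 3 to 6 weeks (0.057% of genes called) and 0 from 6 to 9 weeks (0.00712%). The numbers at an unadjusted p below 0.05 were 0 and 2, beside 9.7% and 11.7% of genes, the 2 being Rragc and Rragd, both lower at 9 weeks, and Rragd passed without WT 6 weeks library C (adjusted p = 0.0414). In NPC 0 of 10 passed from 3 to 6 weeks (0.228%) and 0 from 6 to 9 weeks (0.37%), with 2 (Tfec and Rragd, both higher) and 1 (Rraga, lower, adjusted p = 0.173) at an unadjusted p below 0.05, beside 10.7% and 11% of genes. Rraga passed without NPC 3 weeks library C (adjusted p = 0.0492). The tools edgeR and DESeq2 called 0 in all 4 comparisons.

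**Figure D4:**
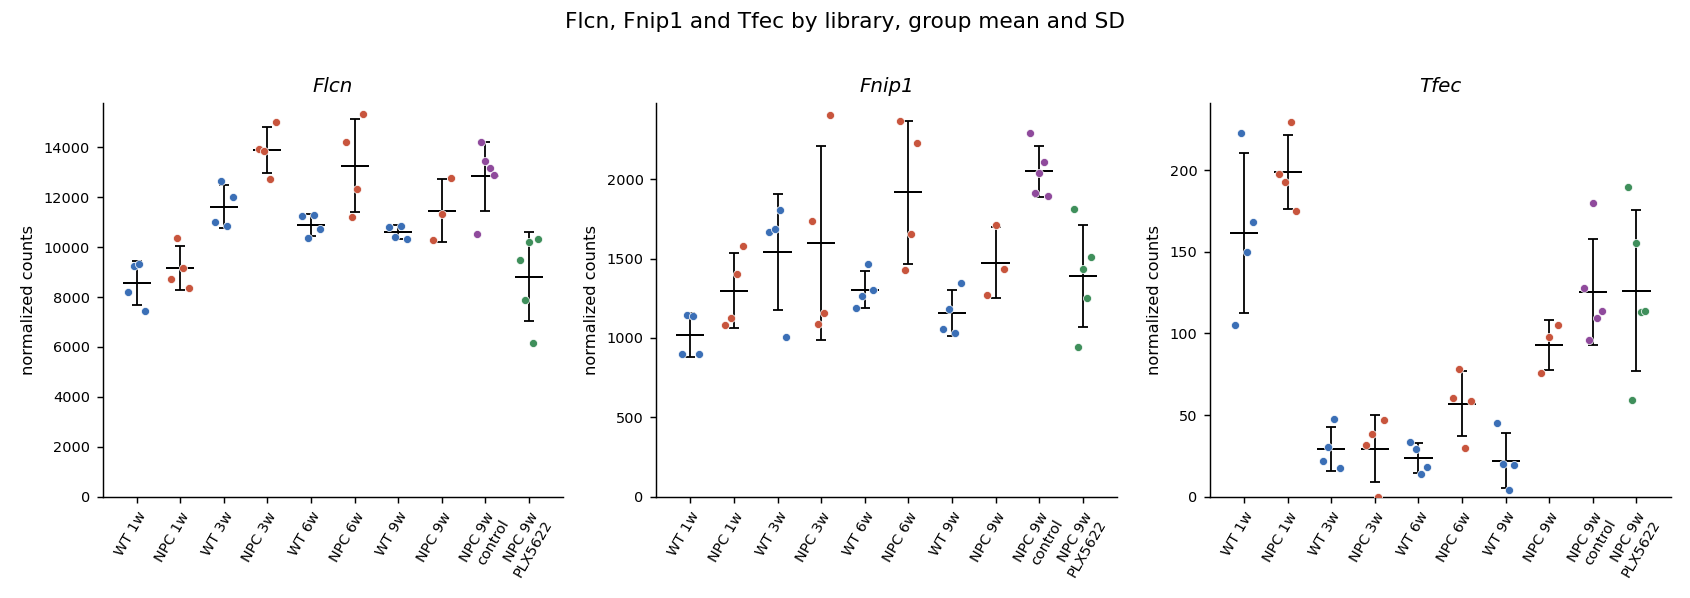
Normalized counts per library (y axis) of Flcn, Fnip1 and Tfec in the 10 groups (x axis); points are libraries, black bars group means with SD, colours as WT blue, NPC red, NPC control purple and NPC with PLX5622 green. Tfec is highest in both genotypes at 1 week, and Flcn and Fnip1 under PLX5622 lie below the NPC control group.

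The 5 control mice of the PLX5622 arm give a second set of NPC libraries at 9 weeks, compared with the same 4 WT libraries as above, so that both comparisons share them. That arm holds no WT group, so a difference by genotype cannot be told apart here from a difference between the arms. Here 5 of 10 members were called higher, beside 11.6% of 14312 genes, and 0 lower, beside 10.4%: Tfec, Fnip1, Fnip2, Rragc and Rragd. Of all genes called, 52.7% were higher, and 42.2% with libraries scaled to the same total. Rragd was 1014, 530, 578, 605 and 608 normalized counts, a fold of 23.3 over WT (15.1 to 35.9, limma adjusted p = 3.65e-14). Rragc was 11356.5, 8386, 8419, 7986 and 7947, a fold of 2.06 (1.70 to 2.49, limma adjusted p = 1.82e-07). All of these values lie above those of WT at 9 weeks. Fnip2 was 4812, 2503, 2332, 2937 and 2759, a fold of 5.15 (3.38 to 7.84, limma adjusted p = 1.05e-07). Tfec was 128, 95.8, 180, 110 and 114, a fold of 7.0 (2.78 to 17.6, limma adjusted p = 0.00142), and Fnip1 was 2291, 1913, 2040, 2109 and 1898, a fold of 1.78 (1.35 to 2.34, limma adjusted p = 0.00146). Each of these 5 calls held in all 41 fits without 1 library. Control library 1 had the highest Rragd, Rragc and Fnip2 of its group. Tfeb (-0.41, adjusted p = 0.0215) and Flcn (0.34, adjusted p = 0.0424) passed without that library, in opposite directions, against 0.1 and 0.0975 with it. Rraga was 1002, 979, 1036, 1133 and 972 normalized counts in the control libraries. All 5 lay below the 4 WT libraries, and the log2 change of -0.30 did not pass (limma adjusted p = 0.115). With libraries scaled to the same total Tfeb (-0.39, adjusted p = 0.0123) and Rraga (-0.39, 0.00991) passed as lower. With only those 2 groups fitted Rraga (-0.30, 0.0356) passed as lower and Flcn (0.27, 0.0321) as higher. Between the control and the untreated NPC mice at 9 weeks 0 of 10 members were called, as were 0% of all genes, with 1 member (Fnip1, 1.4-fold higher in control, 1.04 to 1.88) at an unadjusted p below 0.05, beside 4.18% of genes, and edgeR and DESeq2 called 0 members. For Fnip1 and Fnip2 all control libraries lay above all untreated NPC libraries of that age, with Fnip2 at 1.52-fold (0.959 to 2.40).

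PLX5622 blocks Csf1r, the receptor on which microglia depend for survival. How many microglia the treatment removed, and whether the sorted cells outlasted it, is not given in the sources used here. Against control, whose libraries also enter the comparison with WT, 0 of 10 members were called with limma, beside 0.947% of 12877 genes. With edgeR 0 members were called. At an unadjusted p below 0.05 with limma there were 4, all lower, beside 15% of genes in either direction. DESeq2 called 3 of them: Mitf, Flcn and Fnip1. The share of all genes that edgeR or DESeq2 called was not counted. Mitf was 381, 229, 367, 338 and 520 normalized counts under PLX5622 and 633, 517, 641, 649 and 647 in control. The highest treated library reached just past the lowest control library. The log2 change of Mitf was -0.79 ± 0.19 (limma adjusted p = 0.0788, DESeq2 adjusted p = 0.00856). Flcn was 9479, 7864, 10202, 6158 and 10347 under PLX5622 and 10541, 14200, 13441, 13164 and 12882 in control, without overlap. It differed by -0.56 ± 0.15 on the log2 scale (limma adjusted p = 0.0887, DESeq2 adjusted p = 0.0117). Fnip1 was 1816, 946, 1436, 1253 and 1511 under PLX5622 and 2291, 1913, 2040, 2109 and 1898 in control, again without overlap, and differed by -0.59 ± 0.15 (limma adjusted p = 0.0915, DESeq2 adjusted p = 0.0167). The same treated library, number 2, was lowest for Mitf and Fnip1 and next to lowest for Flcn. Without PLX5622 library 5 Mitf and Flcn passed (limma adjusted p = 0.0171 and 0.0422), and without PLX5622 library 1 Fnip1 passed (0.0488).

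The genes that were higher in NPC than in WT at 9 weeks did not pass under PLX5622. Rragd was 456, 370, 540, 364 and 764 normalized counts against 1014, 530, 578, 605 and 608 in control, with overlap, a fold of 0.740 (0.524 to 1.04, limma adjusted p = 0.408). Fnip2 was 2238, 1479, 1878, 1343 and 3039 under PLX5622, a fold of 0.645 (0.454 to 0.917, limma adjusted p = 0.229), and Rragc had a fold of 0.922 (0.755 to 1.13, limma adjusted p = 0.737). Even the lowest treated library, at 364, was above the highest WT library at 9 weeks, 53.4, for Rragd. Summed markers of monocytes and neutrophils ranged from 1468 to 98581 normalized counts under PLX5622 and from 685 to 5491 in control, the highest value being treated library 3. Of 11 such markers tested 0 passed. Summed markers of border-associated macrophages were 26276 to 48193 under PLX5622 and 19119 to 29582 in control, where Stab1 alone had a median of 20190 over all 41 libraries. Of these markers 1 of 6 tested, Ms4a7, was higher (2.82-fold, limma adjusted p = 0.0417), beside 0.947% of all genes called in either direction. Of 12 microglia markers 1, Fcrls, was lower (0.407-fold, limma adjusted p = 0.0291). Their part in the member values was not tested.

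Some markers of other cells also differed between NPC and WT, and their counts are read beside the shares of all genes. At 3, 6 and 9 weeks 14.3%, 8.76% and 11.2% of all genes were called higher in NPC and 12.6%, 6.5% and 7.77% lower. Of 12 astrocyte markers 3, 2 and 3 were higher in NPC at 3, 6 and 9 weeks and 0 lower. Their summed level at 9 weeks was 9558 to 12954 normalized counts in NPC and 8481 to 9306 in WT, and Slc1a3 alone had a median of 7957 over all 41 libraries. Summed oligodendrocyte markers were 8439 to 17604 in NPC and 6747 to 7135 in WT at 9 weeks, without overlap. At 6 weeks they were 6835 to 19839 in NPC and 5517 to 10095 in WT, the highest being NPC libraries B (19839) and C (17169). Of these 12 markers 0, 0 and 1 were higher at 3, 6 and 9 weeks and 0 lower, below the shares of all genes. Of 10 border-associated macrophage markers 4, 3 and 3 were higher at these ages and 0, 2 and 0 lower, and of 12 microglia markers 2, 1 and 0 were higher and 5, 5 and 7 lower. Their part in the member values was not tested. Without the 2 NPC 6 weeks libraries highest in astrocyte markers, Fnip2, Rragc and Rragd kept their calls at 6 weeks. Melanocyte markers, relevant to Mitf, were near 0: Tyr had 0 reads in all 41 libraries, and the summed level of 7 markers was at most 128 normalized counts, although 2 of the 3 tested were higher in NPC at 3 weeks.

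Known targets of these factors and other genes of the pathway were read from lists taken by name. Of 44 genes of the CLEAR network, lysosomal and autophagy genes described as targets of Tfeb, 43 were tested. At 1, 3, 6 and 9 weeks 4, 29, 27 and 26 of them were higher in NPC, beside 0.876%, 14.3%, 8.76% and 11.2% of all genes, and 0, 1, 1 and 1 lower, beside 0.577%, 12.6%, 6.5% and 7.77%. At 1 week the count was 2 with the replicate block, with Atp6v1a and Ctsb the genes called, and 7 without NPC 3 weeks library C. The list's median log2 change was 0.24, 0.62, 0.50 and 0.54. The V-ATPase subunit gene Atp6v1a was 1.80-, 2.22-, 2.14- and 3.12-fold higher (limma adjusted p = 0.000255, 1.14e-07, 2.26e-07 and 3.56e-10). Ctsb, a lysosomal cysteine protease, was 3.17-fold higher at 9 weeks (limma adjusted p = 4.71e-08), and Cd63, a tetraspanin of late endosomes, 4.64-fold higher (limma adjusted p = 7.01e-07). Tmem55b, which positions lysosomes in the cell, was the gene that was lower, at 0.663-fold at 9 weeks (limma adjusted p = 0.000873), and is named after its values were seen. Without NPC 6 weeks libraries B and C the count at 6 weeks was 9 higher and 0 lower in place of 27 and 1, with a median of 0.36. Over all genes that setting gave 522 higher and 350 lower of 13958 at 6 weeks, in place of 1230 and 913 of 14046.

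Targets shared by Mitf and the Tfe factors in osteoclasts and phagocytes, 6 of 8 tested, share Clcn7 with the CLEAR list. They gave 1, 4, 4 and 4 higher and 0, 1, 0 and 0 lower at the 4 ages. Over all genes 0.876%, 14.3%, 8.76% and 11.2% were higher at these ages and 0.577%, 12.6%, 6.5% and 7.77% lower. At 1 week 2 were higher without NPC 3 weeks library C, a fit in which 267 genes were called higher at that age in place of 123. Acp5, the tartrate-resistant acid phosphatase of osteoclasts, was 2.61-, 7.89-, 9.19- and 12.5-fold higher in NPC (limma adjusted p = 0.0216, 1.25e-07, 3.34e-08 and 7.13e-09). Gpnmb, a glycoprotein of phagocytes and melanosomes, had a fold of 0.780 at 1 week (limma adjusted p = 0.946) and was 8.13-, 21.9- and 19.0-fold higher at 3, 6 and 9 weeks (limma adjusted p = 0.00692, 0.000167 and 0.000575). Clcn7, the lysosomal chloride and proton exchanger, was 1.62-fold higher at 9 weeks (limma adjusted p = 4.07e-05). Acp5, Gpnmb and Clcn7 were called at 3, 6 and 9 weeks. Tfeb and Tfe3 did not pass at these ages, and a link between these results was not tested.

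Upstream of the Rag proteins, the Ragulator complex anchors them to the lysosome, and Slc38a9 is an arginine-sensing transporter that acts with them. Of 7 genes tested (Ragulator subunits, Rragb and Slc38a9) 0, 3, 0 and 1 were higher and 0, 1, 1 and 1 lower at the 4 ages. The shares of all genes called, for this list and those that follow, are the ones given beside the CLEAR counts, and at 6 and 9 weeks 1 call is too few to read against them. Slc38a9 was lower in NPC at 3, 6 and 9 weeks, with folds of 0.742, 0.730 and 0.649 (limma adjusted p = 0.0291, 0.0308 and 0.00460). Lamtor3, a Ragulator subunit, was 1.53-fold higher at 9 weeks (limma adjusted p = 0.0407), and Lamtor1 1.73-fold higher at 3 weeks (limma adjusted p = 0.00637). Without NPC 3 weeks library C, the count at 3 weeks was 1 higher and 0 lower, and without NPC 6 weeks libraries B and C it was 0 and 0 at 6 weeks.

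The GATOR and KICSTOR complexes and their sensors relay amino acid shortage to the Rag proteins. Of 17 such genes 16 were tested, and 0, 2, 1 and 1 were higher and 0, 3, 3 and 3 lower. Sesn1, a leucine sensor family member, was lower, at 0.603-, 0.497- and 0.532-fold at 3, 6 and 9 weeks (limma adjusted p = 0.000157, 1.35e-06 and 1.51e-05), and Sesn2 was at 0.527-fold at 9 weeks (limma adjusted p = 0.000116). Castor1, an arginine sensor listed under its older symbol Gatsl3, was 2.12-, 1.64- and 1.64-fold higher (limma adjusted p = 2.56e-05, 0.00337 and 0.00503). Beside 14.3% and 12.6% of all genes at 3 weeks, 2 and 3 of 16 are near the shares over all genes. Without NPC 3 weeks library C, 1 was higher and 3 lower at 3 weeks, and 1 was higher at 1 week. Without NPC 6 weeks libraries B and C, 0 were higher and 1 lower at 6 weeks.

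Of 12 genes of mTORC1, the TSC complex and Rheb 0, 1, 0 and 1 were higher and 0, 2, 0 and 0 lower, counts near or below the shares over all genes (14.3% and 12.6% at 3 weeks). Eif4ebp1, a substrate of mTORC1 that restrains translation, was 1.74-fold higher at 3 weeks and 1.64-fold at 9 weeks (limma adjusted p = 0.0109 and 0.0366). Rps6kb1, another substrate, was at 0.551-fold at 3 weeks (limma adjusted p = 0.0154). Without NPC 3 weeks library C none of the 12 genes was called at 3 weeks. Of 15 genes that govern where Tfeb resides, the calcineurin subunits, Mcoln1 and the 14-3-3 proteins among them, 0, 4, 3 and 2 were higher and 0, 1, 1 and 1 lower, beside 14.3%, 8.76% and 11.2% of all genes higher and 12.6%, 6.5% and 7.77% lower at 3, 6 and 9 weeks. Of the 14-3-3 genes, Ywhab was 1.29-, 1.32- and 1.49-fold higher at 3, 6 and 9 weeks (limma adjusted p = 0.0123, 0.00925 and 0.000530), and Ywhah was at 0.728- and 0.520-fold at 6 and 9 weeks (limma adjusted p = 0.0173 and 1.55e-05). Mcoln1, the lysosomal calcium channel, was 1.36-fold higher at 9 weeks (limma adjusted p = 0.0133). With libraries scaled to the same total, 2 were higher and 3 lower at 3 weeks. Without NPC 3 weeks library C 1 was higher at 1 week, and without NPC 6 weeks libraries B and C none was called at 6 weeks.

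The group means of the 10 groups were compared as patterns. Pearson's r over 10 group means of log2(value + 1) was 0.95 between Fnip2 and Rragc, 0.95 between Fnip2 and Rragd and 0.95 between Rragc and Rragd, whereas Rragd had -0.18 with Tfeb and -0.15 with Tfe3. Mitf and Tfeb had 0.87, and Mitf and Flcn 0.89. Among 9582 other genes whose mean reached 100 normalized counts, Atp6v1a was the most like Rragc (0.98) and Fnip2 (0.97) and ranked next after Sdk1 (0.99) for Rragd (0.98). For Fnip2, Tcf12 ranked 2 (0.97) and Clcn7 ranked 3 (0.97). For Rragc, S1pr1 ranked 2 (0.98) and Rab7, a GTPase of late endosomes, ranked 3 (0.98). Acbd5 ranked 3 for Rragd (0.98). Tfec was most like Slfn9 (0.99) and E2f6 (0.99), Tfeb like Csf3r (0.97), Mitf like Fam53a (0.97), Tfe3 like Angel1 (0.94), Flcn like Bnip3l (0.95), Fnip1 like Eya4 (0.92) and Rraga like Pdia4 (0.94). These correlations describe 10 points that share libraries and scaling, and no test was made of them.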

How the data were processed

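The authors deposited 1 table of gene-level coverage signal for all 41 libraries: gene counts divided by 1 size factor per library, whose values above 0 are whole multiples of 1 step (100%, within 1e-06 reads), so whole reads were recovered by division. Per the labels' protocols, RNA of sorted cells was amplified with SMART-seq v4, made into Nextera XT libraries and sequenced on a NovaSeq instrument. Per the submitters' processing notes, FastQC 0.11.4, STAR 2.5.1b and DESeq2 were used with build mm9. The counting tool and its strand setting are not given in the sources used here. RefSeq and GENCODE entries on GRCm38 served only for names, lengths and promoters.

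Tests used limma 3.58.1 in R 4.3.3 (trend and robust) on log2(value + 1). For low genes the added 1 shrinks changes, while a single library at or near the floor can enlarge them. For Tfec in NPC between 1 and 3 weeks the log2 change was -3.65, and -2.33 without NPC 3 weeks library C. Genes reaching 10 normalized counts in 3 or more libraries were tested, and p-values were adjusted by Benjamini-Hochberg over all of them, with a threshold of 0.05. The time course (31 libraries, 14046 genes), the PLX5622 arm (10 libraries, 12877 genes) and all 41 libraries (14312 genes, for comparisons across the arms) were each fitted together, giving 15 comparisons. The scripts were tested on simulated data. No 2 libraries were identical. Libraries with the same letter deviated together in WT and NPC at 1 week (4 of 4 pairs, r 0.107 to 0.158) and in no other comparison by this rule, so the blocked value stands beside the results at 1 week that it changed.

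The members and lists were chosen with earlier results of these data known. The text names the 10 members, up to 3 genes per pathway list with the smallest adjusted p in a comparison, the genes most like each member over group means, and marker genes. The genes Bmt2, Ly6g and Trbc2 were not analysed here. Alternatives were edgeR 4.0.16 and DESeq2 1.42.0 on the recovered reads, a pseudocount of 5, no filter, equal totals, quantile normalization, only the groups compared, a replicate block, leaving out each library, and leaving out NPC 6 weeks B and C. For the pathway lists, the fits without NPC 3 weeks C, without NPC 6 weeks B and C and with other scalings and with a replicate block were chosen after seeing the data.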

Additional observations from a re-analysis of the deposited data

Results flagged for a closer look

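Control library 1 of the PLX5622 arm lay apart from its 4 companions in 4 members. Its Rragd was 1014 normalized counts where the next was 608, its Rragc 11356.5 where the next was 8419, its Fnip2 4812 where the next was 2937, and its Tfeb 3429 where the next was 2470. Each gap took a larger part of the group's range than Dixon's 95% critical value allows. In the same group Mitf was lowest in library 2, at 517, and next lowest at 633. Rraga in WT at 1 week was highest in library D, at 1262, with 1187 next, in a group whose values are otherwise close together. Of 90 sets of a member and a group 6 were marked in this way, and chance marks about 1 in 20.

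The genotype difference of Rragd was larger at 9 than at 3 weeks, by 2.33 on the log2 scale, from a fold of 4.19 to one of 21.1.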

How the results depend on the processing

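No result changed sign among called values. At 1 week the count of members changed between NPC and WT was 1, and it was 0 with no filter, 0 with the replicate block, 0 without NPC 6 weeks libraries B and C, 3 with quantile normalization, 3 with DESeq2, and 0 to 3 when 1 library was left out. With equal totals and with only the groups compared it was 1, but that gene was Rragc (adjusted p = 0.0408 and 0.0266) and not Rragd. At 6 weeks it was 3, and 5 with DESeq2 or without NPC 6 weeks B and C. For the genotype difference between 3 and 9 weeks it was 1, and 0 with only the groups compared, 0 with the replicate block, and 0 to 1 when 1 library was left out. Between 1 and 3 weeks in WT it was 6, and 3 with equal totals and 3 to 6 when 1 library was left out. In NPC it was 4, and 2 with equal totals and 1 with only the groups compared. Between 6 and 9 weeks it was 0, and 0 to 1 when 1 library was left out, in each genotype. For PLX5622 against control it was 0, and 3 with DESeq2, 2 with the replicate block (Mitf and Fnip1) and 0 to 2 when 1 library was left out. In that arm the numbers did not meet the rule for pairs, although 4 of 5 libraries correlated best with their own number. The causes of these changes were not tested, and the shares of all genes called with edgeR and DESeq2 were not counted. The calls of Rragc and Rragd at 3, 6 and 9 weeks, of Fnip2 at 6 and 9 weeks, and all 5 calls of the control group against WT held in every setting and every fit without 1 library. The log2 change of Rragd between NPC and WT at 9 weeks ranged from 4.19 to 4.51 across settings. Low read counts limit Tfec and, in WT, Rragd, which had as few as 0 and 11 reads in a library.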
